A study of Mus musculus with 8 samples.

Results

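The genes described here encode the proteins of the cytosolic ribosome of the mouse, chosen by symbol: Rpl or Rps followed by a number, with Rplp0, Rplp1, Rplp2 and Rpsa, and without processed copies (symbols ending in -ps), the Rps6k kinases and Rps19bp1. The table lists 31276 genes, of which 85 met the rule. Of these, 81 passed the filter on low values, 49 of the large and 32 of the small subunit, and they are read against all 14215 genes that passed it. The other 4, Rpl3l, Rpl39l, Rps4l and Rpl10l, are paralogs and are described with their partners.

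RNA was sequenced from C3H10T1/2 cells, a multipotent mesenchymal line from C3H mouse embryos, at passages 10 to 15. Each line stably expressed 1 histone H3 transgene with a FLAG-HA tag in addition to its own histones, and each transgene had 1 library. On H3.3, the variant deposited outside replication, the transgenes were wild type (WT) and the lysine-36 substitutions K36A, K36I, K36L, K36M and K36R. On H3.1, the variant deposited during replication, they were K36M and K36R, and no H3.1 wild type was used here. The labels do not name the promoter of the transgenes, nor say whether a line is 1 clone or a pool.

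A ribosome is built from ribosomal RNA and 1 copy of most of its proteins, so cells make these proteins in matched amounts. Their mRNAs are short, abundant and carry a run of pyrimidines at the 5′ end, the 5′ TOP motif, through which mTOR signalling sets their translation. MYC raises their transcription, and unassembled Rpl5 and Rpl11 bind Mdm2 and so stabilise p53. K36M and K36I are known to inhibit the enzymes that methylate lysine 36 of histone H3, whereas K36R cannot be methylated but is not known for that inhibition, and the labels set these transgenes side by side.

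Levels are given as the deposited variance-stabilised values, a log2 scale of reads per gene relative to the library's other genes, with no correction for length. The libraries held 45448249 reads (H3.1 K36M) and 53199065 (H3.1 K36R), and 61139941 to 68020958 on H3.3. The H3.1 libraries were thus the shallowest. The median level of all tested genes lay between 10.54 and 10.60 in every library. Mesenchymal markers were abundant (Prrx1, 24077 to 35800 normalised reads, reads scaled by the size factor of the library). Cd3e had 0 reads everywhere and Epcam at most 2.19 normalised reads. Other epithelial markers were not all near absent. Cdh1 had 292 (H3.3 K36R) to 1065 (H3.3 K36I) normalised reads, Krt8 1.90 to 76.6 in the same libraries, and Krt18 at most 2.55. In such bulk RNA, fewer cells with a transcript and less of it per cell cannot be told apart.

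Pyrimidine runs were searched in the sequences around the annotated transcription starts. Of the 81 genes, 61 have a RefSeq promoter window (GRCm38.p6), and 48 of the 61 (78.7%) have an unbroken run of at least 8 C or T on the transcribed strand between 30 bases before and 50 bases after the annotated start, against 32.3% of the 27025 genes with such a window. The median longest run was 10 bases in these genes and 6 in all. The following stretches are shown because their genes carry the results below. They are written 5′ to 3′ on the gene's strand, with the longest pyrimidine run in capitals.
Rpl15 (chr14:18270967-18270996, minus strand): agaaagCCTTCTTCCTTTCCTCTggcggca
Rpl18 (chr7:45718062-45718091, plus strand): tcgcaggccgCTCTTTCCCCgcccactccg
Rpl7a (chr2:26910789-26910818, plus strand): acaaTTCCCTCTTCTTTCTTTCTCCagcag
Rps7 (chr12:28635910-28635939, minus strand): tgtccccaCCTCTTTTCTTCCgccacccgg
Rplp2 (chr7:141447636-141447665, plus strand): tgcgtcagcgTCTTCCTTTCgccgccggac
Rplp0 (chr5:115559467-115559496, plus strand): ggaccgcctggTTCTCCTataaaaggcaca
Rpl37a (chr1:72711275-72711304, plus strand): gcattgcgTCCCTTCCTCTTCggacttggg
Rps27l (chr9:66946054-66946083, plus strand): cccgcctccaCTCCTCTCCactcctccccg
The run is 21 bases long in Rpl7a, 17 in Rpl15 and 7 in Rplp0, so Rplp0 does not meet the threshold of 8 in this window. With the annotated start as base 1, the run begins at -4 in Rpl15, 2 in Rpl18, -14 in Rpl7a and -5 in Rplp2. It begins at 23 in Rps7, 12 in Rplp0 and 24 in Rpl37a, and in Rps27l, from -22, it lies wholly before the start. A run in this window is thus not by itself a 5′ TOP motif, which begins at the 5′ end of the mRNA. Motifs were also searched on both strands of the whole window of 300 bases. CCGGAAG, a core recognised by ETS-family factors, was found in 25 of the 61 genes (41.0%) and in 9.93% of all promoters. AAGATGGC, the core of the YY1 site, was found in 9.84% against 3.19%. The TATA-like TATAAA was found in 11.5% against 15.7%. CTTTC, which can lie inside a pyrimidine run, was found in 82.0% against 60.6%. Other words that can lie inside such a run were near the share of all promoters: CCTTT at 63.9% against 61.2% and CTTTT at 55.7% against 57.0%. A match of letters is a description of the window and shows no binding.

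Per kilobase of transcript, the mean level over the 8 libraries ranged from 234 to 107862 normalised reads, with a median of 9025. The 6 highest were Rpl41, with 107862 normalised reads per kilobase, Rplp1 with 91834, Rpl8 with 80940, Rplp0 with 79578, Rpl32 with 75085 and Rps27 with 65695. The 6 lowest were Rps16 with 234, Rpl28 with 448, Rpl23a with 511, Rps13 with 574, Rpl21 with 583 and Rps29 with 633, although each of these proteins is a core part of the ribosome. Sequence shared with other loci can bear on such levels, since mammalian ribosomal protein genes have many processed copies. The part of shared sequence in these levels was not tested. Of the 81 genes, 80 share at least 1 stretch of 50 bases with an annotated transcript of another locus, and in 46 more than 50% of the stretches are shared. Those 46 genes had a median of 6708 normalised reads per kilobase, and the other 35 had 14980. Across the 81 genes Spearman's rho of the shared share and the level was -0.34, a description over genes that share libraries. The sources used here do not say how reads with several loci were counted, so the levels of the shared genes are uncertain. The row for the copy Rplp2-ps1 held 12193 to 17047 normalised reads, above Rplp2 itself, which had means of 4278 on H3.3 and 3375 on H3.1.

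**Figure D1:**
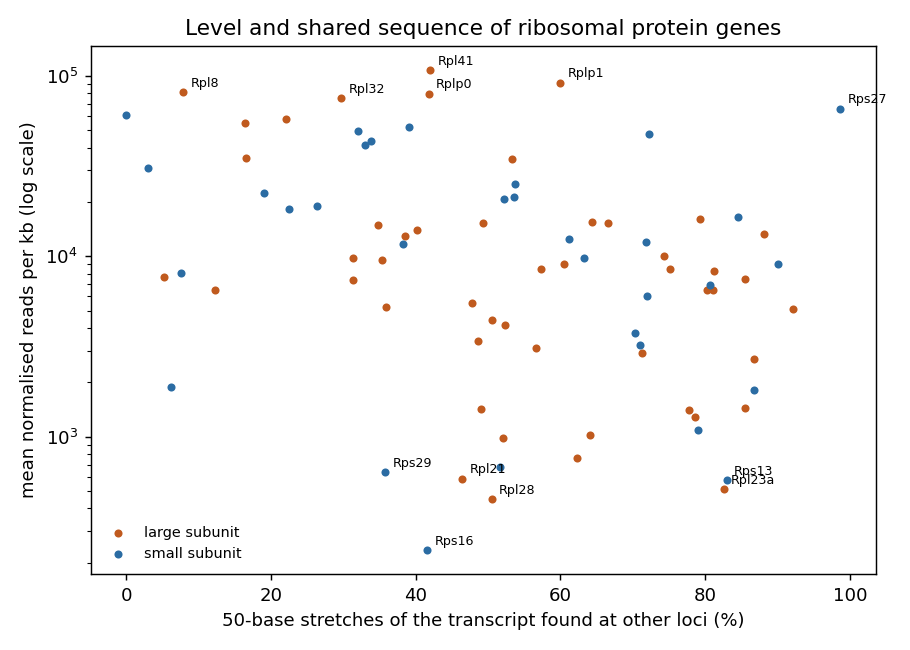
Mean normalised reads per kilobase of transcript (log scale) against the percentage of 50-base stretches found in transcripts of other loci, 1 point per gene for the 81 genes. Rps27, at 98.6% shared, is among the highest, and Rps16, at 41.6% shared, is the lowest at 234.

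Between libraries the ribosomal protein genes moved together. Their median level was 12.63 (K36M) and 12.79 (K36R) on H3.1 and 12.85 (K36A) to 13.03 (K36I) on H3.3. They took 1.68% of all reads in H3.1 K36M (95% Wilson score binomial interval 1.676% to 1.683%, counting error only) and 1.97% in H3.1 K36R. On H3.3 the share was 2.06% in K36A, 2.12% in K36R, 2.26% in WT, 2.27% in K36L, 2.41% in K36M and 2.51% in K36I. Both H3.1 libraries thus lay below all 6 H3.3 libraries. The lowest library was H3.1 K36M for 72 of the 81 genes, H3.1 K36R for 8 and H3.3 K36I for 1. The highest was H3.3 K36I for 37, H3.3 K36M for 27, WT for 7, K36L for 7, H3.3 K36R for 2 and H3.1 K36M for 1. Among all 14215 tested genes H3.1 K36M was the lowest library for 2944 and the highest for 2897, in both cases more than any other library. The correlation of a gene with the median of the others over the 8 libraries had a median of 0.89, and 56 genes were above 0.8, as a description over 8 libraries.

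**Figure D2:**
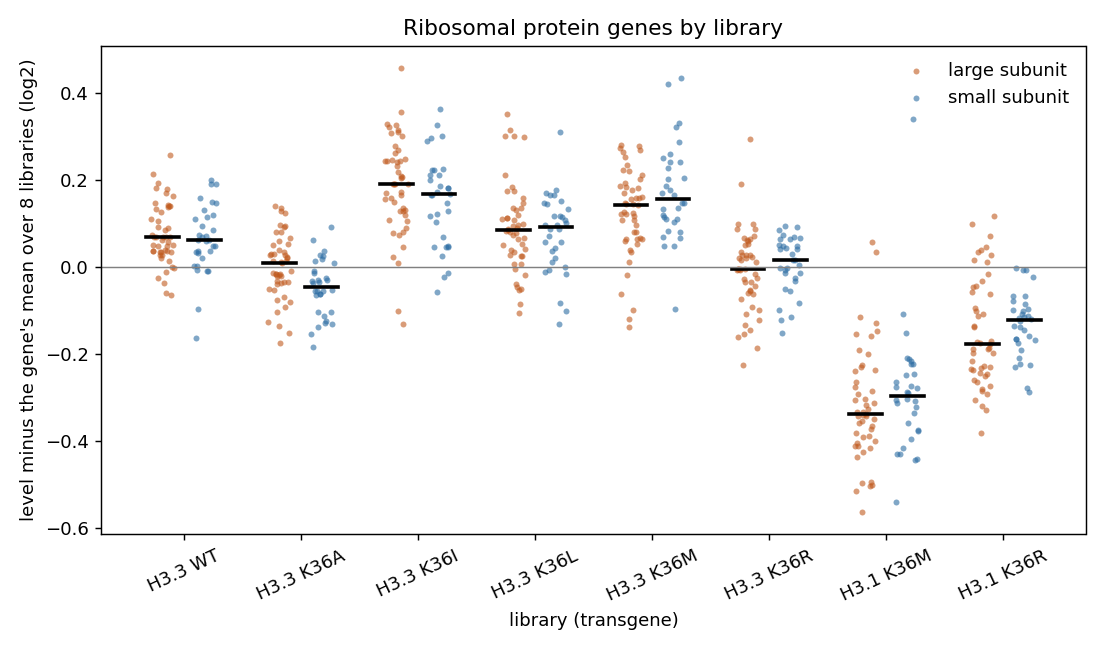
Level of each of the 81 genes minus its own mean over the 8 libraries (log2), by library, with large and small subunit genes side by side and black bars at the medians. Both H3.1 libraries lie mostly below 0, H3.1 K36M furthest, and the single small subunit point high in H3.1 K36M is Rps27l.

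The SD of the level of the ribosomal protein genes over the 8 libraries had a median of 0.18. It ran from 0.063 to 0.30. The mean level of 11158 of the 14215 tested genes lay between the lowest and the highest of the set. Their median SD was also 0.18, and 21.9% of them had an SD above 0.30. This range is wide and the 11158 genes were not matched to the set on level. Only 1555 genes outside the set reached the mean level of its median gene, 12.89. Whether the set varies as much as genes of the same level was not tested. Rpl8 had the largest SD (0.30), followed by Rpl26 (0.28), Rpl19 (0.28), Rps14, Rps7 and Rpl18 (0.27 each). The smallest were Rpl37a (0.063), Rpl24 (0.077), Rpl7l1 (0.10) and Rps24 (0.11).

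The comparison of H3.1 with H3.3 asks whether the same substitution gives another level on another histone. In the 4 libraries that carry K36M or K36R on either histone, 80 of the 81 genes were lower on H3.1, with a median difference of -0.30 (log2), beside -0.0046 for all genes. No gene of the 81 was called (limma, adjusted p under 0.05) while 0.0141% of all genes were called lower and 0.0703% higher. An unadjusted p under 0.05 was found for 6 of the 81 and for 12.4% of all genes. The largest differences, none called, were Rpl7a at -0.54 ± 0.18 (SE), with adjusted p = 0.372, Rps7 at -0.52 ± 0.17 and Rpl18 at -0.51 ± 0.16. At the other end were Rps27l at 0.0074, Rpl37a at -0.038 and Rpl23a at -0.041. By substitution, the median of H3.1 minus H3.3 was -0.45 in the K36M pair, with 79 of 81 genes below 0, and -0.15 in the K36R pair, with 70 below 0. In all, 68 genes were lower on H3.1 in both pairs, as were 31.7% of all genes.

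With all 8 libraries in the fit and the class of the substitution (K36M and K36I, or other) as a term, 24 of the 81 genes were lower on H3.1 at adjusted p under 0.05 and 0 were higher, where 5.37% of all genes were called lower and 5.65% higher. The 24 hold 20 of 49 large subunit genes and 4 of 32 small subunit genes, Rps7 and Rps10 among them. An unadjusted p under 0.05 was found for 56 of the 81 (69.1%), against 30.4% of all genes, and for 33 of the large and 23 of the small subunit genes. The difference between the subunits was not tested. The median difference was -0.31 over the 81 genes, -0.34 in the large and -0.29 in the small subunit, and 0.00016 over all genes. Both H3.1 libraries lay below every H3.3 library in 51 of the 81 genes, among them all 24 called, against 12.2% of all genes. The number of calls rests on single libraries. It was 0 without H3.1 K36M (all genes called lower, 0.366%), 3 without H3.3 K36I (1.55%), 4 without WT (2.29%), 6 without H3.3 K36M (2.33%) and 8 without K36L (2.6%), and 17 to 33 without any one of the other libraries. The median difference kept its sign in each of these fits, between -0.46 without H3.1 K36R and -0.18 without H3.1 K36M. For the fits listed with no share of all genes, the count of calls cannot be set beside all genes.

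Among large subunit genes the largest difference was that of Rpl8, whose protein lies near the peptidyl transferase centre. It had an H3.3 level of 16.22 (WT), 16.14 (K36A), 16.36 (K36I), 16.35 (K36L), 16.17 (K36M) and 15.93 (K36R), and an H3.1 level of 15.55 (K36M) and 15.67 (K36R). The 2 histones did not overlap, and the difference was -0.59 ± 0.13 (SE, limma, adjusted p = 0.0291, 8 libraries). Only 7.86% of its stretches are shared with other loci. Rpl18, with the pyrimidine run of 10 bases printed above, had 7421 ± 647 normalised reads on H3.3 (SD, n = 6) and 5119 ± 551 on H3.1 (SD, n = 2). Its difference was -0.54 ± 0.098 (SE) with an adjusted p of 0.0175. The lowest adjusted p belonged to Rpl36, at -0.47 ± 0.075 with adjusted p = 0.0120, which had 2667 ± 240 normalised reads on H3.3 (SD, n = 6) and 1926 ± 24.4 on H3.1 (SD, n = 2). Exons of Rpl18 overlap those of Sphk2 on the opposite strand, as those of Rpl5, Rpl12, Rps18, Rps25, Rpl22l1, Rpl32, Rpl28 and Rpl23a overlap other genes, and such reads cannot be told apart where strand was not used.

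The ribosomal stalk, which recruits the translation GTPases, is formed by Rplp0, Rplp1 and Rplp2. Rplp0 lies on chromosome 5 at 115559467 to 115563727 (GRCm38, plus strand, 7 exons). On H3.3 its level was 16.79 with WT, 16.79 with K36A, 16.95 with K36I, 16.88 with K36L, 16.95 with K36M and 16.61 with K36R. On H3.1 it was 16.21 with K36M and 16.44 with K36R. Every H3.3 value was above both H3.1 values, and the difference was -0.51 ± 0.12 (SE, limma, adjusted p = 0.0389). Rplp2 was called too, at -0.34 ± 0.064 (adjusted p = 0.0202). Rplp1 was not, at -0.25 ± 0.095 (adjusted p = 0.129), and its groups overlapped.

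Rpl5 and Rpl11, which form the 5S RNP with the 5S rRNA and hold Mdm2 in check, were both called lower. Rpl5 differed by -0.39 ± 0.081 (SE, adjusted p = 0.0272) and Rpl11 by -0.40 ± 0.090 (adjusted p = 0.0324). Rpl38, known for its part in the translation of Hox mRNAs, was lower by the same test, at -0.45 ± 0.12 (adjusted p = 0.0487). In the small subunit, Rps6, the substrate of the S6 kinases, was at -0.46 ± 0.12 and just missed the threshold (adjusted p = 0.0525), as did Rpsa, the laminin receptor protein of the small subunit, at -0.34 ± 0.092 (adjusted p = 0.0535). Rps19, the gene most often mutated in Diamond-Blackfan anaemia, was at -0.26 (adjusted p = 0.0594) and Rps25, used by some internal ribosome entry sites, at -0.22 (adjusted p = 0.0917).

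**Figure D3:**
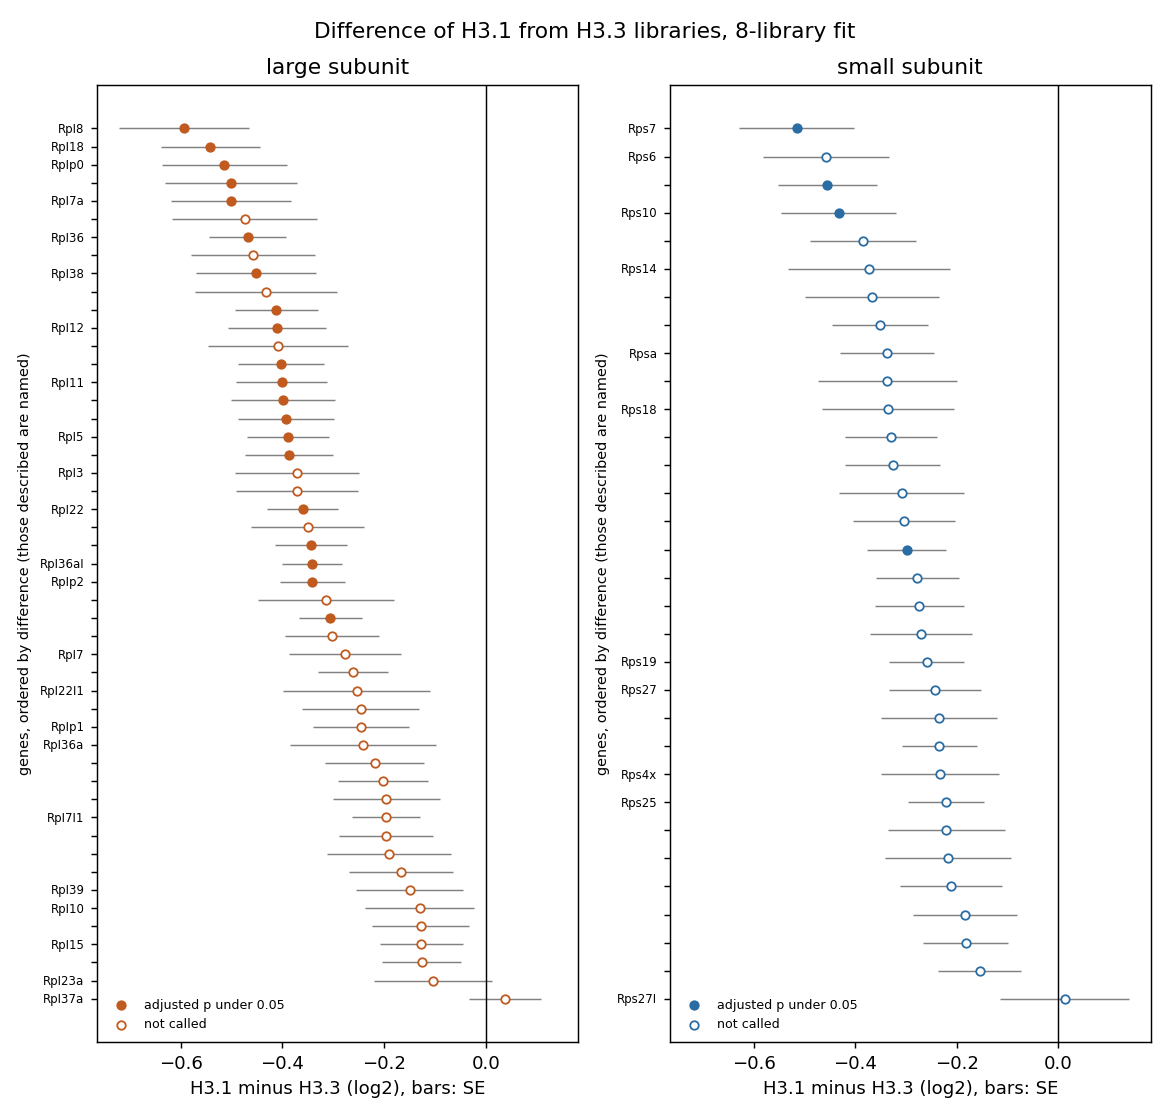
Difference of the H3.1 from the H3.3 libraries (log2) with its standard error, for the 49 large and 32 small subunit genes in the 8-library fit, filled where the adjusted p was under 0.05, with the described genes named on the axis. Of the 81 points 79 lie below 0, and Rpl37a and Rps27l lie at 0.038 and 0.012.

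The paralogs did not all share the pattern of their partners. Rps27 and Rps27l encode close relatives, of which Rps27l is known as a p53 target. On H3.3 Rps27 was at 14.50 (WT), 14.36 (K36A), 14.64 (K36I), 14.58 (K36L), 14.61 (K36M) and 14.49 (K36R). On H3.1 it was at 14.22 (K36M) and 14.37 (K36R). Rps27l was at 13.07, 13.15, 13.11, 13.22, 13.21 and 13.16 in the same order on H3.3, at 13.50 in H3.1 K36M and at 12.89 in H3.1 K36R. It is the only gene of the 81 with its highest value in H3.1 K36M. Among 9 tested genes of a list on nucleolar stress and p53, Mdm2 also had its highest level in H3.1 K36M, at 14.13 against 12.31 to 12.69 elsewhere, as did Ccng1, at 15.83 against 14.35 to 15.00. Mdm2 and Ccng1 were singled out after their values were seen, and neither was called. H3.1 K36M was the highest library for 2897 of the 14215 tested genes. The list's median difference of H3.1 from H3.3 was 0.19, with 3 of 9 below 0, and -0.039 without H3.1 K36M. Of the 9 genes 1, Mdm4, was called higher, at 0.33 (adjusted p = 0.0484), and no gene of the list was called without H3.1 K36M or without any one of the H3.3 libraries.

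Rpl22 and its paralog Rpl22l1 differed in how the H3.1 libraries lay. Rpl22 was at 13.65 in H3.1 K36R, 13.74 in H3.1 K36M and 13.89 to 14.22 on H3.3 (difference -0.36 ± 0.071, adjusted p = 0.0228), whereas Rpl22l1 was at 11.71 in H3.1 K36M alone and 12.15 to 12.41 in the other 7 libraries (-0.25 ± 0.14, adjusted p = 0.273). Rpl36al was called lower (-0.34 ± 0.059, adjusted p = 0.0155) and its X-linked relative Rpl36a was not (-0.24, adjusted p = 0.294). As with Rpl22 and Rpl22l1, both differences lay below 0. The difference between paralogs was not tested. Rpl7 and Rpl7l1 were at -0.28 and -0.20, Rpl3 at -0.37, Rpl39 at -0.15, Rpl10 at -0.13 and Rps4x at -0.23, none of them called. The remaining partners were near absent. Rpl3l, known from striated muscle, had 4.75 to 12.8 normalised reads, Rpl39l and Rpl10l, known from testis, had 0 to 5.26 and 0 in every library, and Rps4l had 0 to 2.85. A count of 0 allows up to 3 reads, at most 6.60e-06% of a library.

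The genes around ribosome production give the setting of these differences, and each list below was read in the same 8-library fit, where 5.37% of all genes were called lower and 5.65% higher. Of 29 tested 5′ TOP mRNAs of genes outside the set, 8 were called lower on H3.1 and 0 higher, with a median of -0.23. Among them were the translation factors Eif3h (-0.45) and Eif4b (-0.46) and the scaffold Gnb2l1 (-0.53). Of 66 genes of rRNA transcription and ribosome biogenesis, 12 were called lower and 0 higher, with a median of -0.22, such as Polr1c, a subunit of RNA polymerases I and III (-0.55), and Nob1, the nuclease of late 18S maturation (-0.54). Of 14 import and assembly genes 1 was called lower (Bccip, -0.49) and 0 higher. Of 24 regulators in the MYC and mTOR list 1 was called lower (Eif4ebp1, -0.36) and 0 higher, with a median of -0.033. Myc itself was at -0.39 (adjusted p = 0.0692). Of 76 mitochondrial ribosomal protein genes, 21 were called lower and 0 higher, with a median of -0.21, the largest at Mrpl38 (-0.78). These counts rest on single libraries too. Without H3.1 K36M they were 0 of 29, 1 of 66, 0 of 14, 0 of 24 and 1 of 76 in the order given, and without any one library they ran from 0 to 9 for the 5′ TOP list, 1 to 16 for biogenesis, 0 to 2 for import and assembly, 0 to 1 for the regulators and 1 to 23 for the mitochondrial genes. The medians of the 5′ TOP, biogenesis and mitochondrial lists stayed between -0.29 and -0.19 in these fits.

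The 4 genes outside the set that were most like its median over the 8 libraries, among 5963 compared, were Tbpl1 (r = 0.98), the elongation factor Eef2 (r = 0.98), the respiratory complex I subunit Ndufa13 (r = 0.98) and Gpr108 (r = 0.97). Eef2 was at 17.39 in H3.1 K36M, 17.64 in H3.1 K36R and 17.74 to 18.16 on H3.3.

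Transcript length moved with the histone as well. Among genes outside the set, the median of H3.1 minus H3.3 was -0.066 for transcripts of up to 1000 bases (1170 genes), -0.054 from 1000 to 2000, 0.0061 from 2000 to 4000 and 0.056 above 4000. From the shortest to the longest class the K36M pair went from -0.083 to 0.087 and the K36R pair from -0.030 to -0.011. For the 1555 genes with a mean level of at least the median ribosomal protein gene, whatever their length, the 8-library median was -0.012, with 52.4% below 0. For the 574 genes of up to 1000 bases whose mean level reached the 10th percentile of the ribosomal protein genes it was -0.12, with 70.2% below 0, beside -0.31 and 97.5% for the ribosomal protein genes, whose median transcript is 751 bases. By GC content the medians ran from 0.034 at up to 45% to -0.048 above 55%. Within the set, the genes with more and with less than 50% shared stretches had medians of -0.27 and -0.33, and those with and without a pyrimidine run of at least 8 had -0.31 and -0.24. The part of length, level, GC content and depth in the result was not tested, and histone and depth cannot be told apart in these libraries.

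The comparison of the 3 libraries with K36M or K36I with the other 5 asks what the enzyme-inhibiting substitutions share. Here the ribosomal protein genes as a group lay near 0. The median difference was 0.0016, with 42 genes above and 39 below 0, beside -0.0087 for all genes. Of the 81 genes 1 was called lower, Rpl15, and 0 higher, where 6.82% of all genes were called lower and 6.45% higher. Rpl15 was also the only 1 of the 81 with an unadjusted p under 0.05, against 28.3% of all genes. Rpl15, a large subunit protein whose gene lies on chromosome 14 at 18267823 to 18271391 (GRCm38, minus strand), was at 12.61 in H3.3 K36I, 12.60 in H3.3 K36M and 12.40 in H3.1 K36M. It was at 12.80 in WT, 12.86 in K36A, 12.81 in K36L and 13.03 in K36R on H3.3 and at 12.81 in H3.1 K36R. The 2 classes did not overlap, and the difference was -0.32 ± 0.082 (SE, limma, adjusted p = 0.0340). The call was lost without any one of the libraries other than H3.1 K36R, at adjusted p of 0.0572 to 0.0759, and with library medians set equal, while the difference stayed between -0.36 and -0.26. Exons of Rpl15 overlap Nkiras1 on the opposite strand and 75.2% of its stretches are shared with other loci, so its count is uncertain.

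The next largest differences did not pass. Below 0 these were Rpl21 (-0.24 ± 0.11, adjusted p = 0.200), Rpl27 (-0.17), Rpl22l1 (-0.17), Rps6 (-0.15) and Rpl10 (-0.11). Above 0 they were Rps18 (0.20 ± 0.15, adjusted p = 0.454), Rps14 (0.18), Rps27l (0.18), Rpl17 (0.15), Rpl12 (0.15) and Rpl22 (0.14). Rps14, a small subunit protein at the platform, shows how a library can carry such a difference. It was at 15.14 in K36I and 15.24 in K36M on H3.3, above 14.65 to 14.85 in the other 4 H3.3 libraries, but at 14.39 in H3.1 K36M, the lowest of the 8.

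Within H3.3 alone, K36M and K36I against the other 4 libraries gave a median of 0.11 with 75 of 81 genes above 0, and 5 genes were called higher (Rps14, Rps15a, Rpl12, Rpl32 and Rpl36) and 0 lower, where 8.58% of all genes were called higher. Rps14 differed by 0.44 ± 0.087 (SE, adjusted p = 0.0162) there and Rpl12 by 0.31 ± 0.073 (adjusted p = 0.0287). Without H3.1 K36M the class comparison gave a median of 0.16 and 6 genes higher, beside 6.96% of all genes. These shares of 81 genes are near the shares of all genes.

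In the class comparison the related lists are read beside the 6.45% of all genes called higher and the 6.82% called lower. Of the 66 biogenesis genes 1 was called higher, Eif6 (0.36, adjusted p = 0.0167), which keeps free large subunits from joining small ones, and 0 lower. Of the 14 import and assembly genes 2 were called higher, the Rps2 chaperone Pdcd2 (0.43) and the importin Tnpo1 (0.26), and 0 lower. Of the 24 MYC and mTOR regulators 2 were called lower, the mTOR subunit Mlst8 (-0.42) and the S6 kinase Rps6kb2 (-0.35), and 0 higher. No gene was called in either direction among the 29 other 5′ TOP genes (median 0.019) or the 9 p53 genes (median 0.30). Of the 76 mitochondrial ribosomal protein genes 1 was called higher and 2 lower.

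**Figure D4:**
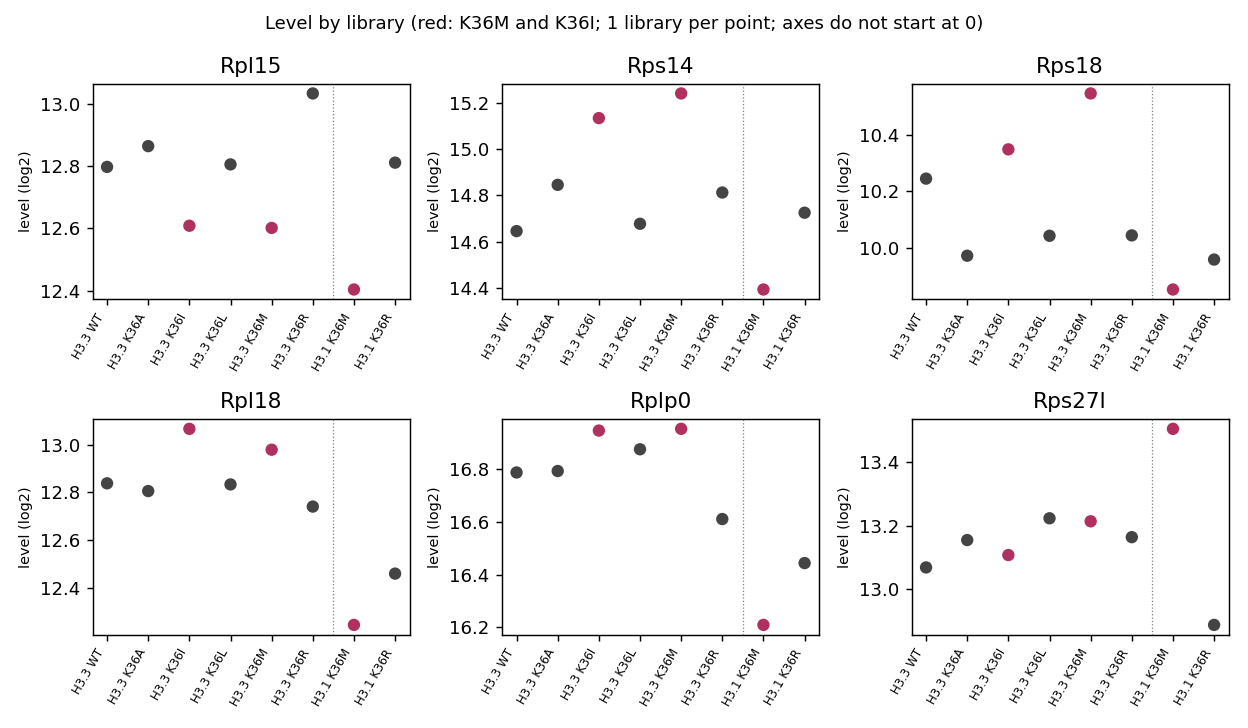
Deposited log2 level of 6 genes in each library, 1 point per library, red for K36M and K36I, with a dotted line between the H3.3 and H3.1 libraries. Rpl15 is lowest in all 3 red libraries, Rps14 and Rps18 are high in the H3.3 red libraries and low in H3.1 K36M, Rpl18 and Rplp0 are low on H3.1, and Rps27l peaks at 13.50 in H3.1 K36M.

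K36M against K36R, over both histones, gave a median of 0.0093 with 42 genes above and 39 below 0. No gene of the 81 was called (limma), where 0.682% of all genes were called higher and 0.879% lower. An unadjusted p under 0.05 was found for 1 of the 81, against 13.7% of all genes. That one was Rpl15, at -0.42 ± 0.15 (SE, adjusted p = 0.338), followed by Rpl22l1 (-0.37) and Rpl21 (-0.26), and above 0 by Rps27l (0.33), Rps18 (0.20) and Rps29 (0.18). The pooled median combines opposite directions on the 2 histones. On H3.3, K36M minus K36R had a median of 0.14 with 72 genes above 0, and on H3.1 a median of -0.19 with 72 genes below 0. In 64 genes K36M was above K36R on H3.3 and below it on H3.1, as in 18.5% of all genes. Rpl15 was lower in K36M on both, by -0.43 on H3.3 and -0.41 on H3.1. With 1 library per transgene the difference between the histones was not tested.

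**Figure D5:**
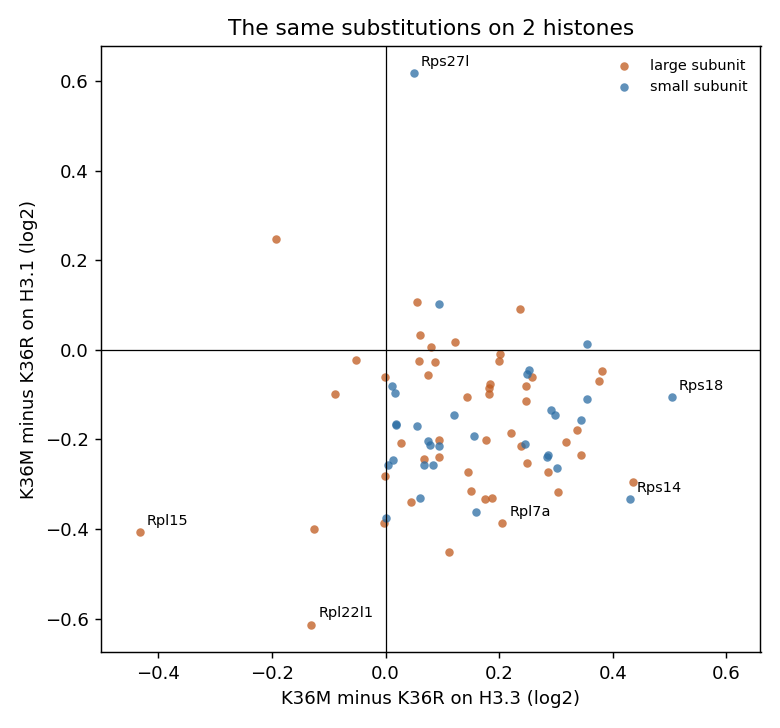
K36M minus K36R on H3.1 against the same on H3.3 (log2), 1 point per gene for the 81 genes and 1 library per transgene. Most points, 64, lie at the lower right (above 0 on H3.3, below 0 on H3.1), Rpl15 lies below 0 on both axes and Rps27l is at 0.62 on H3.1.

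Against H3.3 WT each mutant had 1 library, so the differences carry no test, and all of them share the WT library. The median over the 81 genes was -0.097 (K36A), 0.10 (K36I), 0.012 (K36L), 0.085 (K36M) and -0.057 (K36R) on H3.3, and -0.38 for K36M and -0.21 for K36R on H3.1, beside -0.012 to 0.0028 for all genes. Below WT were 66 genes (K36A), 16 (K36I), 36 (K36L), 24 (K36M) and 59 (K36R) on H3.3, and 78 and 72 in H3.1 K36M and H3.1 K36R. K36A had the highest share of reads from the 45S rRNA precursor, 5.24% against 1.66% to 3.11% in the other libraries, and its part in the values of that library was not tested. The H3.3 mutants thus lay within about 0.1 of WT in the median, and both H3.1 lines lay further below it.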

How the data were processed

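Per the labels, total RNA of 8 lines was extracted with Trizol and made into libraries by the Illumina TruSeq protocol. Trimmomatic 0.32, STAR 2.3.0e, featureCounts 1.4.4, DESeq2 and the build mm10 are named in the submitters' processing notes; those notes give no annotation, strand setting or rule for reads with several loci. The authors deposited log2-scale values, a variance-stabilising transformation of reads per gene divided by a size factor. Inverting it gave whole reads for 100% of values within 0.001 reads. The lowest value is 5.95. Tested were 14215 genes whose mean exceeds it by 1 or more, which is near 31.0 normalised reads, and 17061 were left out.

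Models were fitted across all tested genes with limma 3.58.1 (R 4.3.3, trended prior variance), two-sided, with Benjamini-Hochberg adjustment at 0.05. The class fit set 3 libraries against 5, K36M against K36R 2 against 2, and H3.1 against H3.3 the same 4 libraries with the substitution as a term. The 8-library fit of H3.1 against H3.3 was planned as an alternative and is reported beside it, and its own alternatives were chosen after seeing the data. The gene set and lists were chosen with earlier results of these data known. Genes named are the 6 highest and 6 lowest per kilobase, the largest differences of each comparison, the extremes of SD, the paralog pairs and the stalk and checkpoint genes; other genes of the lists were chosen after their values were seen. The labels do not say that lines were derived more than once, so a p-value reflects only how far these libraries spread, which may be technical. Transcript lengths are from GENCODE M21 on GRCm38, for 12399 tested genes (87.2%) and all 85 set genes. Values of some called genes are not reported here.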

Additional observations from a re-analysis of the deposited data

Results flagged for a closer look

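In 4 of 90 groups of values looked at (each named gene in the 5 libraries without K36M or K36I and in the 6 H3.3 libraries), 1 library lay far from the others by Dixon's test at 95%. Chance gives about 1 in 20 for genes picked without regard to their values. That rate does not apply here, since some of these genes were named for their differences in the same libraries. H3.1 K36R is also the only H3.1 library among the 5. All 4 lay in the 5 libraries without K36M or K36I. Rpl15 was high at 13.03 in H3.3 K36R. Rpl7a was low at 12.71, Rpl18 at 12.46 and Rpl36al at 12.25, each in H3.1 K36R. The median over the 81 genes of K36M minus K36R was 0.14 on H3.3 and -0.19 on H3.1, in opposite directions. That difference was not tested, since each transgene had 1 library.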

How the results depend on the processing

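In the class comparison the call of Rpl15 was lost (0 genes lower) with library medians set equal and in H3.3 alone, and without 1 library the count lower ran from 0 to 1. The count higher was 5 in H3.3 alone, where 8.58% of all genes were called higher. It was 3 with array weights, a fit whose share of all genes is not given here. Without 1 library it ran from 0 to 6, the 6 without H3.1 K36M, where 6.96% of all genes were called higher. The median ran from -0.096 to 0.16 without 1 library. Of the named genes, Rpl22l1 (-0.29 to 0.030 without 1 library, 0.039 in H3.3 alone), Rps6 (-0.30 to 0.072, 0.016 in H3.3 alone) and Rpl10 (-0.20 to 0.026, 0.045 in H3.3 alone, 0.027 with array weights) changed sign; none of them was called. In K36M against K36R the median ran from -0.24 to 0.23 without 1 library, with 0 genes called, and Rps18 (-0.15 to 0.55) and Rps29 (-0.083 to 0.45) changed sign. In H3.1 against H3.3 the count went from 0 to 24 with all 8 libraries, where Rpl37a was at 0.038; leaving out 1 of the 4 libraries leaves no residual degrees of freedom and was not run. In the 8-library fit, calls ran from 0 to 33 and the median from -0.46 to -0.18 without 1 library. The causes were not tested. The labels give no replicate numbers, so none could serve as a block. The substitution pairs the 4 libraries in H3.1 against H3.3 and is a term of that fit, and with the histone as a term K36M against K36R gave 0 calls and the same median, 0.0093. What depth limits was not tested apart from the histone.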
